A study of Homo sapiens with 12 samples.

Results

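The BCL2 family genes and their close partner CFLAR set the threshold at which a cell commits to apoptosis. Here 10 of them (BCL2, BCL2L1, MCL1, BCL2A1, BAX, BAK1, BCL2L11, BID, PMAIP1 and CFLAR) were taken by symbol from the 28901 named genes of the gene table and followed through 4 groups of human adipocytes. The cells were ASC52telo hTERT, an immortalized line of adipose-derived stromal cells, carried through 14 days of adipogenic culture. By the paper's methods, insulin and dexamethasone were present throughout. Isobutylmethylxanthine and rosiglitazone were in the first medium only, before a change to maintenance medium without them. They carried a lentiviral hairpin, either scramble shRNA or 1 shRNA against the lincRNA linc-ADAIN (KD), and had been sorted for the ZsGreen reporter of the vector. Each was sampled without LPS, the bacterial cell wall component that activates TLR4, or 4 h after adding LPS at 100 ng/mL. All 12 libraries share the parent line, its genotype and the culture, but each hairpin was carried by its own transduced population. With 1 shRNA, the knockdown cannot be told apart from other effects of that hairpin or a difference between the populations. The 3 libraries of a group belong to 1 experiment in triplicate, so p-values measure the spread within that experiment. linc-ADAIN expression was not analysed here, so the knockdown was not checked in these libraries and KD stands for their label.

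The BCL2 family acts at the outer membrane of the mitochondrion. BAX and BAK1 are the effectors that open this membrane and release cytochrome c, and prosurvival proteins (BCL2, BCL-XL from BCL2L1, MCL1 and BCL2A1) hold them back. BH3-only proteins such as BIM (BCL2L11), BID and NOXA (PMAIP1) bind the prosurvival proteins or activate the effectors, and NOXA binds MCL1 in particular. CFLAR encodes c-FLIP, which is not a BCL2 protein but blocks caspase-8 at death receptors, upstream of BID cleavage. In many cell types BCL2A1, CFLAR and the inhibitor of apoptosis BIRC3 are targets of NF-kappaB, the transcription factor that LPS and inflammatory cytokines activate.

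The sequence upstream of BCL2A1 is shown because this gene had the largest difference of the 10 in each comparison of groups. It is the 250 bases before the gene's start, chr15:79971197-79971446 on the minus strand (RefSeq promoter table, GRCh38.p14), written 5′ to 3′.
BCL2A1: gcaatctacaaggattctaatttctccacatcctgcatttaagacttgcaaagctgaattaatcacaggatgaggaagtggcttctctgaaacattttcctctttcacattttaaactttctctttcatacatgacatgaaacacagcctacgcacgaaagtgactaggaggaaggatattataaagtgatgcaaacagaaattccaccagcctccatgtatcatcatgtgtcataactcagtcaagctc
The NF-kappaB consensus of 10 bases and the AP-1 site TGANTCA were searched on both strands in windows from 250 bases before to 50 bases after each start. The table held 17 windows for 9 of the 10 genes. The window of BCL2A1 held neither motif, which says only that these letters are absent there. The NF-kappaB consensus lay in 1 of the 4 windows of CFLAR, 97 bases before an internal start, at chr2:201118609-201118638 on the plus strand. It is capitalised here.
CFLAR: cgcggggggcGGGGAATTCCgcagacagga
Another window of CFLAR held the AP-1 letters, and the other windows of the 10 genes held neither motif. Of all 35116 windows in the table, 11.3% held the NF-kappaB consensus and 7.71% held TGANTCA. The motifs do not share letters in these windows, and a match is no evidence of binding.

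AU-rich elements in the 3′ UTR mark many mRNAs with short half-lives. The heptamer TATTTAT was present in the 3′ UTR of the GENCODE canonical transcript of 6 of the 10 genes (BCL2, BCL2L1, MCL1, BCL2L11, PMAIP1 and CFLAR), and in 31.9% of the 3′ UTRs of 19140 canonical coding transcripts. The 3′ UTR was 5279 bases in BCL2 and 12714 bases in CFLAR, but 175 bases in BCL2A1 and 162 bases in BAX, and a longer UTR has more room for a match. MCL1 and PMAIP1 held 3 heptamers each. These genes are shown because their products bind each other and their counts parted in KD with LPS. The first heptamer of both is given in capitals with its flanks, from chr1:150575808-150575834 on the minus strand and chr18:59903962-59903988 on the plus strand.
MCL1: cctctacagaTATTTATatcaattcct
PMAIP1: ggaataatttTATTTATtttgcctatt
BCL2A1, BAX, BAK1 and BID had no such heptamer.

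The libraries held 28.4 to 53.8 M counts (M, 1e6) on named genes, with the scramble libraries without LPS deepest (48.1 to 53.8) and the KD libraries with LPS spanning 28.4 to 45.3. The deposited values are estimated counts per gene, and levels are given as CPM, counts per 1e6 after TMM scaling of library sizes. All 10 genes passed the minimum of 10 counts in every comparison. A gene was called when the adjusted p of edgeR's quasi-likelihood test was under 0.05. Other sets of genes moved with the groups. Among all genes tested, 12.1% were called higher and 15.1% lower in KD without LPS, and 12.7% and 14.2% with LPS. Of 8 adipocyte markers 6 were lower in KD both without and with LPS, and the summed level of all 8 was 3130 to 4350 CPM in scramble control, 3640 to 4210 in scramble with LPS, 619 to 1830 in KD and 501 to 1180 in KD with LPS. Of the 8 markers, LPL (0 to 82 counts) and LEP (0 to 21 counts) were near 0 in all groups. Of 7 stromal markers 2 were higher and 3 lower in KD in both comparisons. The part of these shifts in the results below was not tested, and in bulk RNA fewer cells of a type and less RNA per cell cannot be told apart. Summed leukocyte and macrophage markers were at 58.1 to 72.5 CPM in scramble libraries and 81.1 to 118 CPM in KD libraries, mostly through CD163, whereas the pan-leukocyte gene PTPRC stayed at 0 to 12 counts and LYZ at 0 to 17. Of the 5 tested without LPS, 1 was higher in KD and 1 lower, and of the 6 tested with LPS, 2 were higher (CD163 and CD14) and 1 lower. The endothelial gene CDH5 had 0 to 3 counts, and 2 of 4 endothelial markers tested without LPS were lower in KD and 0 higher, and with LPS 3 of 4 were lower and 1, KDR, higher. The proliferation genes CDK1 and TOP2A were higher in KD without LPS, 2 of 5 in their list, and 0 of the 5 were called with LPS. All 6 genes chosen to check LPS (CXCL8, IL6, NFKBIA, TNFAIP3, CCL20 and CXCL1) were higher with LPS in scramble control and in KD. Of these 6, 4 were higher and 0 lower in KD, both without and with LPS. The interaction test described below called 1 of the 6 more positive in KD. IL6 rose with LPS by 1.34 on the log2 scale in scramble control and by 2.50 in KD.

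Per kilobase of canonical transcript, the prosurvival genes BCL2L1 and MCL1 had the highest levels of the 10 in scramble control, at 66.8 ± 5.52 and 52.4 ± 4.2 CPM per kb (SD, n = 3). The effector BAX followed at 30.1 ± 1.03 CPM per kb. BAK1 (8.53 ± 0.889), CFLAR (7.53 ± 0.656) and BID (7.3 ± 2.89) did not differ beyond their spread. BCL2 was at 0.573 ± 0.074 and BCL2A1 at 0.117 ± 0.163 CPM per kb. In KD with LPS MCL1 led at 71.1 ± 5.01 CPM per kb, and BCL2A1 stood at 34.1 ± 4.51, within the spread of BAX (38.7 ± 5.7) and BCL2L1 (35.7 ± 1.85). BCL2 was then the lowest, at 0.647 ± 0.0185 CPM per kb. The canonical transcript of CFLAR is 14612 bases, so its per-kb level would be higher for a shorter isoform.

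**Figure D1:**
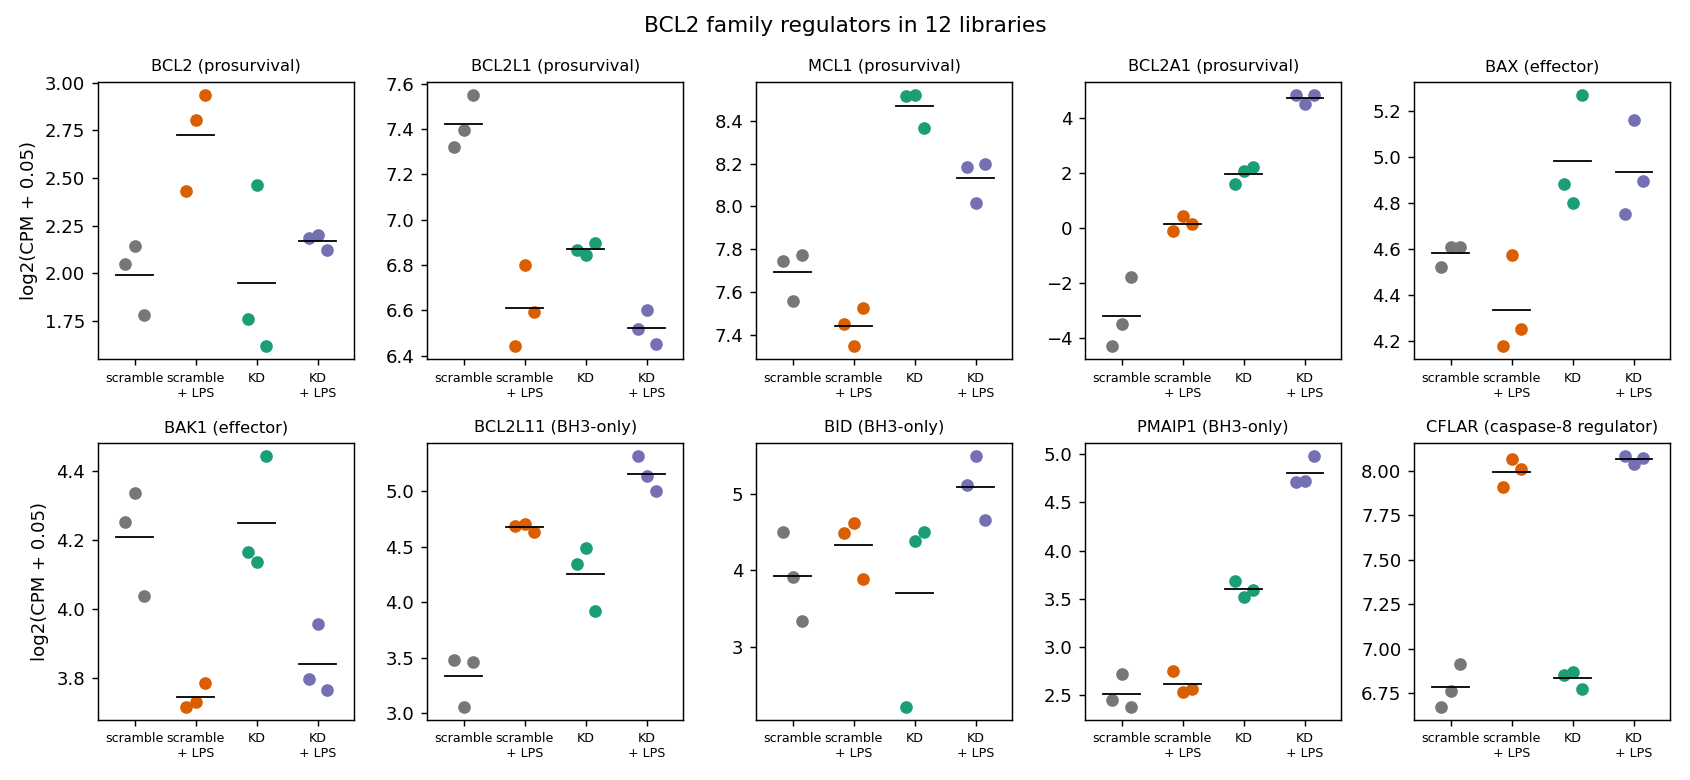
Level of each of the 10 genes as log2(CPM + 0.05) on the y axis, with its own scale per panel, in the 3 libraries (points) of each of the 4 groups on the x axis, with the mean as a line. BCL2A1 stands at a separate level in each of the 4 groups, PMAIP1 stands apart in KD and again in KD with LPS, and CFLAR separates libraries with LPS from those without.

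The first question was which of these regulators differ when linc-ADAIN is knocked down. Without LPS, 5 of the 10 genes were higher in KD (BCL2A1, PMAIP1, BCL2L11, MCL1 and BAX) and 1 was lower (BCL2L1). Of all 16217 genes tested, 12.1% were called higher and 15.1% lower. BCL2A1 and PMAIP1 also passed a 2-fold difference, as did 7.77% of all genes. The median log2 fold change was 0.24 for the 10 genes and 0.02 for all genes. With LPS in both groups, 6 of the 10 were higher in KD (the same 5 and BID) and 0 were lower, with 12.7% of 15981 genes called higher and 14.2% lower. BCL2A1 and PMAIP1 again passed 2-fold, against 8.48% of all genes. The median was 0.56 for the 10 genes and 0.03 for all genes. The 10 genes were chosen with earlier results of these data known, and all genes include ones with as few as 10 counts in total. The shares and medians, here and below, are therefore no test of the 10 genes as a set. The 3 KD libraries lay wholly above or below the scramble libraries for 6 of the 10 genes without LPS and 7 with LPS, and for 42.5% and 40.5% of all genes tested.

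Among the prosurvival genes, BCL2A1 (chromosome 15, 79960892 to 79971196, minus strand of GRCh38) encodes A1/BFL-1, best known from haematopoietic cells. It had 0, 2 and 11 counts in the scramble libraries, and 103, 224 and 190 in KD. The groups were far apart, and the scramble level was at the edge of detection. The log2 fold change was 5.45 (SE 0.722, adjusted p = 0.00015), and its size rests on the 11 counts of scramble replicate 3, without which it was 7.50. With LPS the counts were 34, 39 and 45 in scramble and 1009, 1056 and 819 in KD, a log2 fold change of 4.65 (SE 0.191, adjusted p = 1.9e-09), or 25-fold.

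MCL1 (chromosome 1, 150560895 to 150579738, minus strand) encodes a prosurvival protein with a short half-life. It was at 215, 188 and 219 CPM in scramble and 367, 368 and 330 in KD, a log2 fold change of 0.78 (SE 0.0825, adjusted p = 2.7e-05). After LPS it was at 175, 163 and 184 CPM in scramble and 291, 259 and 294 in KD, a log2 fold change of 0.70 (SE 0.0811, adjusted p = 2e-05). Every KD library was above every scramble library in both settings. BCL2L1 (chromosome 20, 31664452 to 31723989, minus strand) moved the other way without LPS, from 160, 168 and 188 CPM in scramble to 117, 115 and 119 in KD (log2 fold change -0.55, SE 0.0803, adjusted p = 0.00031). With LPS it was at 86.8 to 111 CPM in scramble and 87.6 to 97 in KD, and the 95% interval of the log2 difference ran from -0.29 to 0.12 (adjusted p = 0.58). BCL2 itself (chromosome 18, 63123346 to 63320128, minus strand) was at 3.38 to 4.37 CPM in scramble and 3.01 to 5.47 in KD, with an interval from -0.56 to 0.57. With LPS the 3 KD libraries (4.3 to 4.54 CPM) lay below the scramble libraries (5.35 to 7.61), but the log2 fold change of -0.57 (SE 0.215) did not pass at an adjusted p of 0.07.

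Of the effectors, BAX (chromosome 19, 48954815 to 48961798, plus strand) was at 23, 24.4 and 24.4 CPM in scramble and 29.4, 27.8 and 38.5 in KD. The groups did not overlap, with a log2 fold change of 0.42 (SE 0.127, adjusted p = 0.027). This call was lost without any 1 of the 3 scramble libraries or without KD replicate 3 (adjusted p 0.071 to 0.093). With LPS BAX was at 18, 23.7 and 19 CPM in scramble and 26.9, 35.8 and 29.7 in KD, a log2 fold change of 0.62 (SE 0.139, adjusted p = 0.0046). BAK1 (chromosome 6, 33572547 to 33580293, minus strand) overlapped between KD and scramble in both settings, with intervals of the log2 difference from -0.23 to 0.32 without LPS and from -0.18 to 0.39 with LPS.

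The BH3-only gene PMAIP1 (chromosome 18, 59899996 to 59904305, plus strand) was at 5.42, 6.53 and 5.15 CPM in scramble and 12.8, 11.4 and 12 in KD, which is 2.12-fold higher (log2 fold change 1.08, SE 0.153, adjusted p = 0.00025). After LPS PMAIP1 was at 6.68, 5.74 and 5.87 CPM in scramble and 26.1, 26.3 and 31.6 in KD, 4.61-fold higher (log2 fold change 2.20, SE 0.139, adjusted p = 6.3e-08). The spread within each group was small beside both differences. BCL2L11 (chromosome 2, 111119378 to 111168444, plus strand) was at 11.1, 8.24 and 10.9 CPM in scramble and 20.2, 22.4 and 15.1 in KD (log2 fold change 0.93, SE 0.167, adjusted p = 0.0013). With LPS it was at 24.8 to 26.1 CPM in scramble and 32 to 39.9 in KD (log2 fold change 0.50, SE 0.109, adjusted p = 0.0038). All KD libraries were above the scramble libraries here too. BID (chromosome 22, 17734138 to 17774770, minus strand), which caspase-8 cleaves to link death receptors to mitochondria, varied widely between libraries of a group. Its KD libraries without LPS held 158, 1119 and 923 counts, and its scramble libraries 1190, 795 and 469, so an interval of -0.94 to 0.98 on the log2 scale left a change in either direction possible. After LPS BID was at 22.4, 24.5 and 14.7 CPM in scramble and 34.6, 45.3 and 25.3 in KD (log2 fold change 0.79, SE 0.208, adjusted p = 0.012). The call was lost without scramble with LPS replicate 3 (0.059), without KD with LPS replicate 2 (0.084) and in 1 fit of all 12 libraries (0.16).

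CFLAR (chromosome 2, 201116154 to 201176687, plus strand) was close between KD and scramble. It was at 102, 109 and 121 CPM in scramble and 116, 117 and 110 in KD without LPS, and the interval of the log2 difference was -0.13 to 0.23. The LPS libraries were at 240, 268 and 257 CPM in scramble and 271, 263 and 269 in KD, with an interval of -0.08 to 0.23. An annotated antisense gene, CFLAR-AS1, lies within the locus. Whether strand was used in the counting is not given in the sources used here, so reads of the pair may not have been separated.

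**Figure D2:**
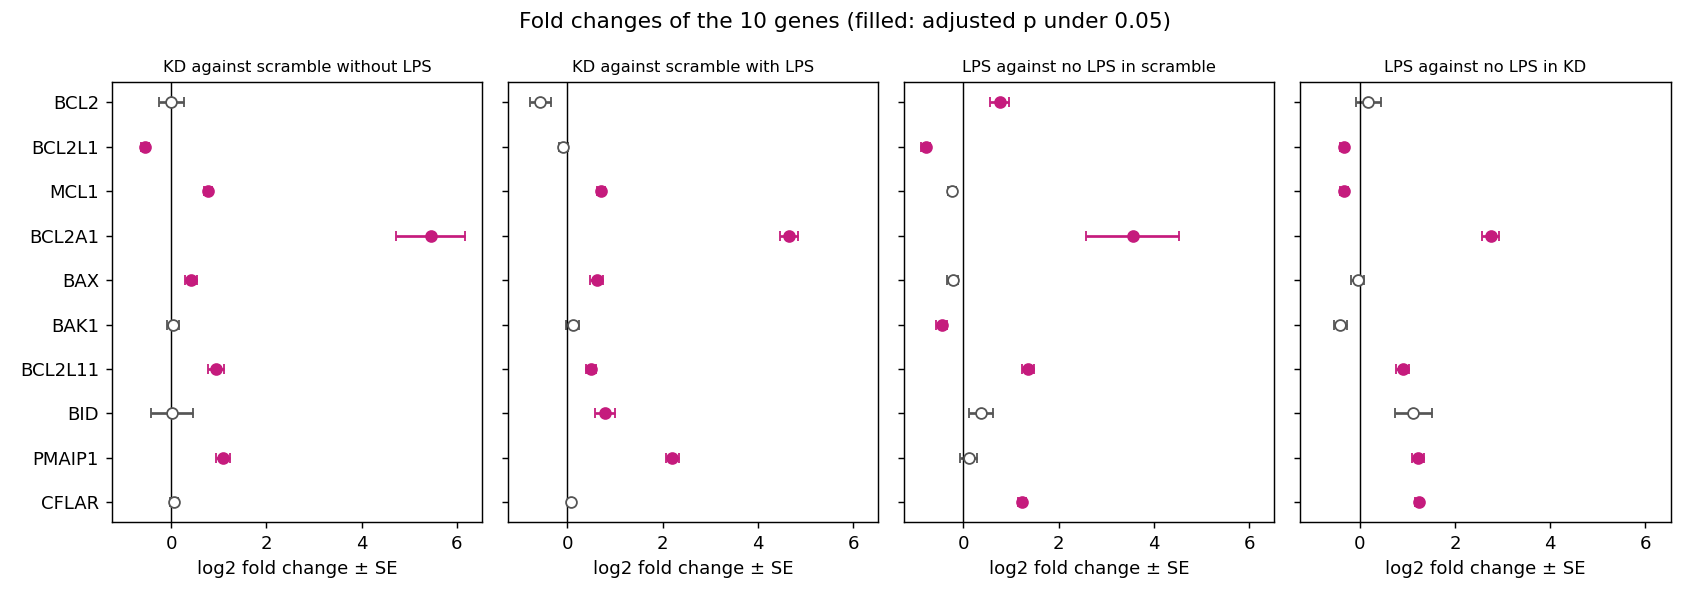
log2 fold change (x axis, point) with its standard error (bar) for the 10 genes (y axis) in the 4 comparisons of groups, filled where the adjusted p was under 0.05. BCL2A1 lies far to the right in all 4 panels, PMAIP1 near 0 only in the panel of LPS in scramble, and CFLAR near 0 in both panels of KD.

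The second question was how these genes respond to LPS in each line. In scramble control 4 of the 10 were higher with LPS (BCL2A1, BCL2L11, CFLAR and BCL2) and 2 were lower (BCL2L1 and BAK1), against 5.9% of 15920 genes called higher and 8.38% lower. BCL2A1, BCL2L11 and CFLAR passed 2-fold, as did 2.68% of all genes. In KD 4 were higher (BCL2A1, CFLAR, PMAIP1 and BCL2L11) and 2 were lower (BCL2L1 and MCL1), against 5.32% of 16169 genes higher and 6.03% lower. BCL2A1, CFLAR and PMAIP1 passed 2-fold, as did 2.25% of all genes. The groups did not overlap for 7 of the 10 genes in scramble and 8 in KD, and for 32.1% and 27.1% of all genes. Each group of libraries serves in 2 of the 4 comparisons, so these are not independent of those above.

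CFLAR was higher in every library with LPS than in any without. From 102, 109 and 121 CPM it went to 240, 268 and 257 CPM in scramble control (2.33-fold, log2 fold change 1.22, SE 0.084, adjusted p = 2.8e-06), and from 116, 117 and 110 to 271, 263 and 269 CPM in KD (2.36-fold, log2 fold change 1.24, SE 0.0707, adjusted p = 1.9e-08). BCL2A1 rose in scramble control from 0, 2 and 11 to 34, 39 and 45 counts, a log2 fold change of 3.55 (SE 0.975, adjusted p = 0.031). This value was 5.63 without scramble replicate 3, and the adjusted p was 0.051 to 0.11 when scramble replicate 1 or 2, or scramble with LPS replicate 2 or 3, was left out. In KD it rose from 103, 224 and 190 to 1009, 1056 and 819 counts, 6.74-fold (log2 fold change 2.75, SE 0.182, adjusted p = 1e-07).

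BCL2L11 rose with LPS in both lines, from 8.24 to 11.1 CPM up to 24.8 to 26.1 in scramble control (log2 fold change 1.35, SE 0.129, adjusted p = 3.2e-05) and from 15.1 to 22.4 CPM up to 32 to 39.9 in KD (log2 fold change 0.90, SE 0.143, adjusted p = 0.00061). PMAIP1 was at 5.15 to 6.53 CPM without and 5.74 to 6.68 with LPS in scramble control, where the groups overlapped (log2 fold change 0.11, SE 0.176, adjusted p = 0.76). In KD it rose from 11.4 to 12.8 CPM to 26.1 to 31.6 (log2 fold change 1.22, SE 0.129, adjusted p = 1.5e-05). BID was at 25.3 to 45.3 CPM in KD with LPS, above all 3 KD libraries without LPS, yet at an adjusted p of 0.076 (log2 fold change 1.13, SE 0.382). KD replicate 1 was low at 4.57 CPM. Without it the log2 fold change was 0.69 and the adjusted p 0.043. BID was called in 2 of the 6 fits with a library left out and in 2 of 7 other settings. Over those settings, DESeq2 among them, the adjusted p ran from 5.3e-15 to 0.3.

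BCL2L1 fell with LPS, from 160 to 188 CPM to 86.8 to 111 in scramble control (log2 fold change -0.80, SE 0.099, adjusted p = 0.00023) and from 115 to 119 CPM to 87.6 to 97 in KD (log2 fold change -0.34, SE 0.0775, adjusted p = 0.01). The fall in KD was at an adjusted p of 0.059 without KD with LPS replicate 3. MCL1 fell in KD from 330 to 368 CPM to 259 to 294 (log2 fold change -0.33, SE 0.0761, adjusted p = 0.011), a call lost without KD with LPS replicate 2 (0.057). In scramble control MCL1 was at 188 to 219 CPM without and 163 to 184 with LPS (log2 fold change -0.25, SE 0.0838, adjusted p = 0.076). That difference was called in 4 of 7 other settings.

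BCL2 rose in scramble control from 3.38 to 4.37 CPM to 5.35 to 7.61 (log2 fold change 0.76, SE 0.2, adjusted p = 0.026), and BAK1 fell from 16.4 to 20.1 CPM to 13.1 to 13.7 (log2 fold change -0.46, SE 0.116, adjusted p = 0.02). Both calls were fragile. That of BCL2 was lost when scramble replicate 1, 2 or 3 or scramble with LPS replicate 2 or 3 was left out, and that of BAK1 without scramble replicate 1 or 2 or scramble with LPS replicate 3. Leaving out scramble replicate 1 or 2, or scramble with LPS replicate 3, took the number of the 10 genes called from 6 to 3. In KD, BAK1 was at 17.5 to 21.7 CPM without and 13.5 to 15.5 with LPS (adjusted p = 0.079). BAX was not called with LPS in either line, with intervals of -0.48 to 0.02 in scramble and -0.35 to 0.26 in KD.

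Whether the response to LPS differs between KD and scramble control was tested as an interaction on all 12 libraries. PMAIP1 was the 1 gene of the 10 with a different response, more positive in KD by 1.13 on the log2 scale (SE 0.197, adjusted p = 0.007). Of 17173 genes, 0.943% were called more positive and 0.332% more negative. The value for PMAIP1 stayed between 1.02 and 1.20 with each library left out, at adjusted p-values up to 0.03. For the other 9 genes the test did not pass. BCL2L1 was nearest, with a fall that was smaller in KD by 0.47 (SE 0.126, adjusted p = 0.087), and it was called by DESeq2 (0.018), without a filter on low counts (0.038) and without scramble with LPS replicate 2 (0.027). For BCL2L11 the interaction was -0.43 (SE 0.201, adjusted p = 0.43), with an unadjusted interval from -0.86 to -0.01. The interaction of BCL2A1 was -0.82 (SE 0.621), with an interval from -2.13 to 0.49. With each library left out it ran from -2.84 to -0.22, at adjusted p-values from 0.06 to 0.97. For CFLAR the interval was -0.19 to 0.25, and for MCL1 -0.31 to 0.17.

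**Figure D3:**
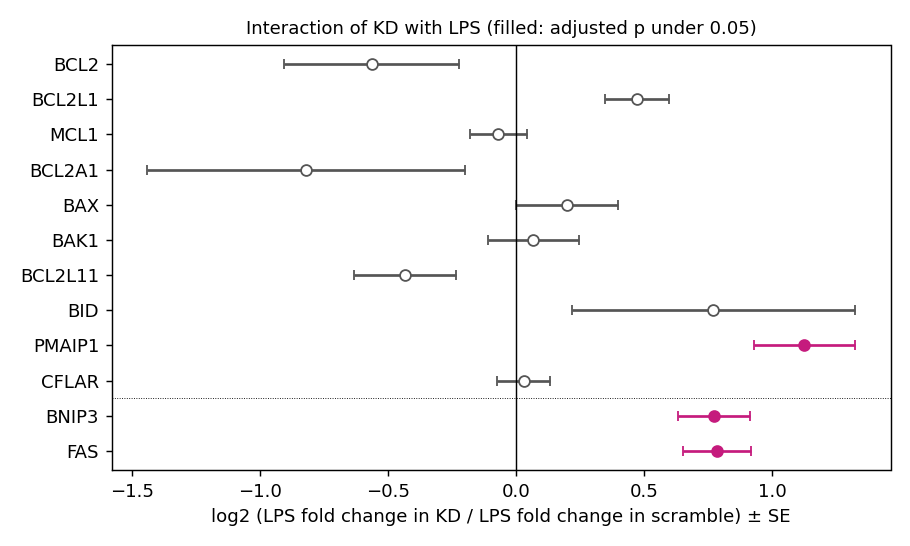
Difference between the LPS response in KD and in scramble control, on the log2 scale (x axis, point) with its standard error (bar), for the 10 genes and, under the dotted line, for BNIP3 and FAS. Filled points (PMAIP1 at 1.13, BNIP3 at 0.78 and FAS at 0.79) had an adjusted p under 0.05.

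Ratios of counts within a library do not depend on library size. MCL1 and PMAIP1 encode an inhibitor and its binding partner. Their ratio of counts was 39.7, 28.8 and 42.6 in scramble, 26.1, 28.3 and 31.3 in scramble with LPS, 28.7, 32.3 and 27.4 in KD, and 11.2, 9.84 and 9.31 in KD with LPS. The 3 libraries of KD with LPS thus stood below the other 9 libraries, which overlapped among themselves. For CFLAR and CASP8, which compete at death receptors, the ratio was 7.09 to 9.76 in scramble, 8.23 to 9.47 in KD, 15 to 18.8 in scramble with LPS and 26.2 to 33.7 in KD with LPS. Both LPS groups were above both groups without LPS and did not overlap each other. CASP8 was lower in KD than in scramble control with LPS, at 7.98 to 10.4 against 14.2 to 16.1 CPM (log2 fold change -0.73, SE 0.149, adjusted p = 0.0022). The ratio of BCL2 to BAX was 0.292 to 0.4 in scramble with LPS and 0.0781 to 0.197 in the other 9 libraries. These ratios are of counts, not of protein or of transcript numbers, and no test was run on them.

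**Figure D4:**
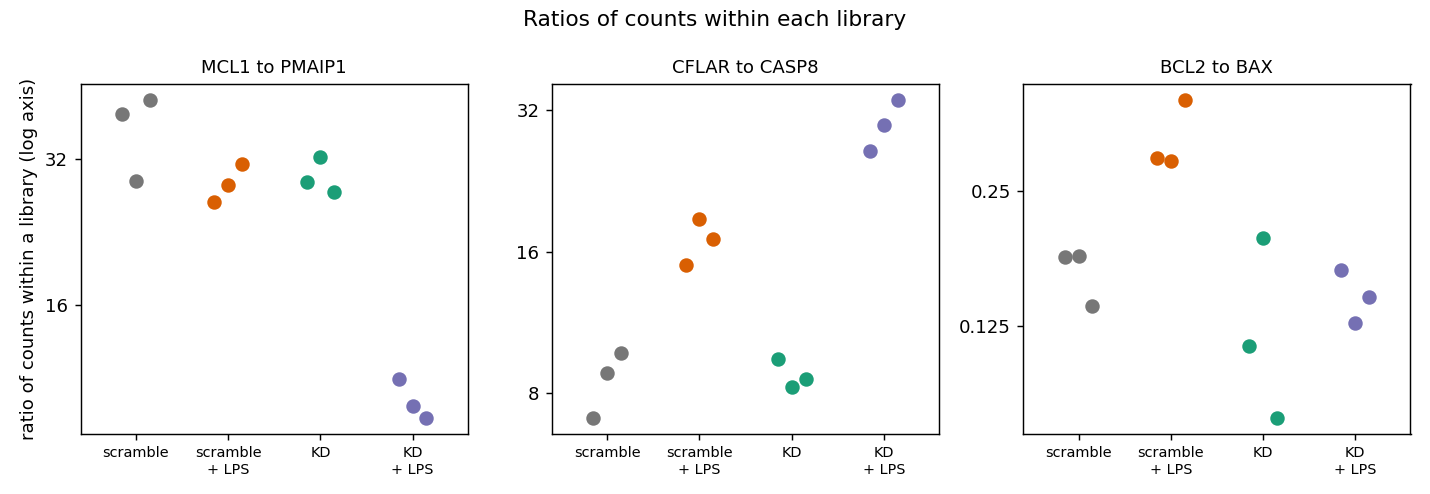
Ratio of counts within each library (y axis, log scale) for MCL1 to PMAIP1, CFLAR to CASP8 and BCL2 to BAX, with 1 point per library and the 4 groups on the x axis. KD with LPS is lowest for MCL1 to PMAIP1 (9.31 to 11.2) and highest for CFLAR to CASP8 (26.2 to 33.7).

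Of 14 further members of the BCL2 family 11 were tested without LPS, with 1 higher in KD (BCL2L12, log2 fold change 0.42) and 2 lower. With LPS 12 were tested, with 3 higher and 1 lower. Among all genes tested, 12.1% were higher and 15.1% lower in KD without LPS, and 12.7% and 14.2% with LPS. For the response to LPS these shares were 5.9% and 8.38% in scramble control, and 5.32% and 6.03% in KD. They also apply to the lists in the paragraphs below. BOK, an effector-like relative of BAX and BAK1, was 1.85-fold lower in KD without LPS (log2 fold change -0.89, SE 0.11, adjusted p = 9.3e-05) and 2.14-fold lower with LPS (-1.10, SE 0.148, adjusted p = 7.9e-05). BNIP3, a mitophagy receptor, fell with LPS in scramble control from 77.7 to 95.4 CPM to 55.1 to 72 (log2 fold change -0.43, adjusted p = 0.021) and rose in KD from 60.1 to 69.2 CPM to 77.8 to 85.6 (0.33, adjusted p = 0.024). Its interaction was 0.78 (SE 0.141, adjusted p = 0.0088). BCL2L10 and BIK had 0 counts in every library, under the limit of 3 counts.

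Among 7 inhibitors of apoptosis, BIRC2 and BIRC3, the ubiquitin ligases cIAP1 and cIAP2, were higher in all 4 comparisons. BIRC3 was at 1.57 to 4.05 CPM in scramble, 8.31 to 11.4 in scramble with LPS, 17.2 to 21.5 in KD and 76.4 to 86.4 in KD with LPS, with no overlap between groups. Its log2 fold change in KD was 2.86 (SE 0.267, adjusted p = 9.7e-06) without LPS and 3.03 (SE 0.123, adjusted p = 1.7e-09) with LPS. Of the 6 members tested, 3 were higher and 1 lower in KD without LPS, 2 higher and 1 lower with LPS, and 2 higher and 0 lower with LPS in either line.

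Of 13 death receptor genes, 1 was higher and 1 lower in KD without LPS, and 3 were higher and 2 lower with LPS. The shares of all genes called higher and lower were 12.1% and 15.1% without LPS, and 12.7% and 14.2% with LPS. TNFRSF10B, the TRAIL receptor DR5, was higher in KD (log2 fold change 0.86, SE 0.0757, adjusted p = 5.7e-06, and with LPS 0.72, SE 0.0803, adjusted p = 1.5e-05). TNFRSF1A, the main receptor for TNF, was at 439 to 497 CPM in scramble and 222 to 258 in KD (log2 fold change -0.98, SE 0.0852, adjusted p = 5.4e-06, and with LPS -1.21, SE 0.0927, adjusted p = 3.9e-07). FAS was at 42.3 to 43.8 CPM in scramble, 40.6 to 51.5 in scramble with LPS, 43.3 to 46.4 in KD and 78.5 to 89.4 in KD with LPS. It rose with LPS in KD (log2 fold change 0.94, SE 0.0897, adjusted p = 5.9e-06), and its interaction was 0.79 (SE 0.133, adjusted p = 0.0055). With LPS, 1 of the 13 was higher and 1 lower in scramble control, and 2 higher and 1 lower in KD. CYLD, a deubiquitinase of this pathway, rose in both (log2 fold changes 0.58 and 0.82).

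Of 11 genes of the apoptosome and the caspases, 3 were higher and 0 lower in KD without LPS, 2 higher and 2 lower with LPS, 2 higher and 2 lower with LPS in scramble control, and 2 higher and 3 lower with LPS in KD. CASP9, the initiator caspase of the mitochondrial pathway, was higher in KD without LPS (log2 fold change 0.93, SE 0.207, adjusted p = 0.0057) and not called with LPS (0.73, adjusted p = 0.072). Of 11 partners and modifiers of BCL2 proteins, 1 was higher and 3 lower in KD without LPS, 0 higher and 3 lower with LPS, and 0 higher and 2 lower with LPS in either line. The 3 lower genes were MARCHF5 (log2 fold change -0.40, and with LPS -0.36), BAG3 (-0.38 and -0.44) and HUWE1. The change of HUWE1, a ubiquitin ligase for MCL1, was the smallest (log2 fold change -0.28, SE 0.0727, adjusted p = 0.013, and with LPS -0.32, SE 0.0725, adjusted p = 0.0045). A link to the level of MCL1 was not tested.

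**Figure D5:**
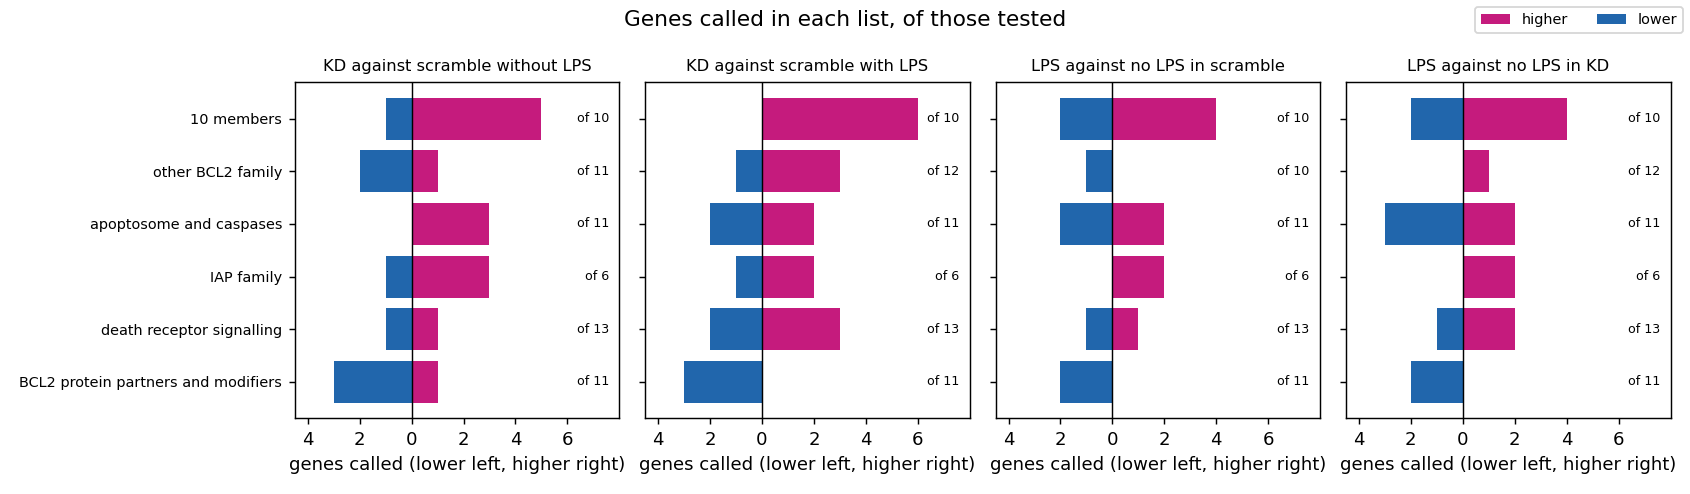
Number of genes called higher (right of 0) and lower (left of 0) on the x axis for the 10 genes and 5 lists of related genes (y axis) in the 4 comparisons, with the number tested at the right of each bar. The 10 genes had 6 calls in each comparison. Among all genes tested, 12.1% were higher and 15.1% lower in KD without LPS, and 12.7% and 14.2% with LPS. For the response to LPS these shares were 5.9% and 8.38% in scramble control, and 5.32% and 6.03% in KD.

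BCL2A1, the gene with the largest called difference, was compared with 11811 genes by the root mean square difference of centred log2 CPM over the 12 libraries. The nearest were IL1B (0.76), ITGB8 (0.78) and CCL11 (1.17). IL1B, an inflammatory cytokine, had 35 to 83 counts in scramble, 168 to 341 in scramble with LPS, 404 to 507 in KD and 4113 to 5801 in KD with LPS, in the same order of groups as BCL2A1. ITGB8, an integrin subunit, had 51 to 146, 307 to 512, 802 to 2078 and 3656 to 5043 counts in that order. Genes that respond to the same group differences are alike by this measure whatever their control.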

How the data were processed

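Illumina stranded mRNA libraries from 12 cultures of 4 groups were quantified by the authors. Per the submitters' processing notes, bcl2fastq 2.19, kallisto 0.44.0 with GRCh38 and DESeq2 1.32.0 were used, and the deposited values are kallisto estimated counts per gene name, without normalization. The annotation release is not given in the sources used here. A row with no gene name (0.235% to 0.306% of counts) was left out. In R 4.3.3, counts were rounded, genes under 10 counts in total in a fit's libraries were dropped, and edgeR 4.0.16 tested them by its quasi-likelihood F test after TMM scaling with Benjamini-Hochberg adjustment over all genes tested. Each comparison of groups used its 6 libraries and the interaction all 12. The SE is the size of the log2 fold change divided by the square root of F, and 95% intervals are unadjusted and use that SE with the test's own degrees of freedom. CPM were scaled over all 12 libraries. Replicate libraries correlated at 0.971 to 0.986 in log2 CPM, and no pair agreed within sampling noise. Genes with few counts are limited by depth. With 3 libraries against 3 an exact permutation test cannot go below 0.1.

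The 10 genes and all lists were chosen with earlier results of these data known. All 10 genes were named. From each list of related genes up to 3 called genes with the largest change and a mean of at least 50 counts could be named, CASP8 also as part of a ratio, and the LPS check genes and defining markers near 0 (PTPRC, LYZ and CDH5) as values. LPL, LEP, PLIN1, PPARG, CD14, BCL2L10, BIK and BBC3 were added after their values were seen. Positions and canonical transcripts come from GENCODE release 44 on GRCh38. Alternatives were DESeq2 1.42.0, other scalings and filters, 1 fit of all groups, the replicate number as a block, and leaving out each library. Both tools were tested on simulated data for KD against scramble without LPS and for the interaction, where 200 genes were changed. The outcome is not given here, and the changes set were larger than most found for the 10 genes.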

Additional observations from a re-analysis of the deposited data

Results flagged for a closer look

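In 3 genes of the family and its pathway the response to LPS differed between KD and scramble control by the interaction test. They were 1 of the 10 genes, 1 of 12 further BCL2 family members tested and 1 of 13 death receptor genes. The other lists of related genes had 0. Of all 17173 genes, 0.943% were called more positive and 0.332% more negative, and of 6 LPS check genes 1 was more positive. The lists were chosen with earlier results known. The alternatives were run for the 10 genes only, not for FAS and BNIP3. PMAIP1 differed by 1.127 on the log2 scale (adjusted p = 0.007), with 3 of 3 KD libraries with LPS above every KD library without LPS, while the scramble libraries overlapped. FAS differed by 0.786 (adjusted p = 0.0055), with the same arrangement of libraries. BNIP3 differed by 0.775 (adjusted p = 0.0088), and its change was in opposite directions in the 2 lines. Of 8 adipocyte markers 6 were lower in KD in both settings, unlike the paper's qPCR and western blots of such markers. Their part in these differences was not tested.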

How the results depend on the processing

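Of 25 called values of the 10 genes, 18 kept their direction and call under all alternatives run, and of all 50 values 28 kept both direction and side of the threshold. The number of the 10 genes called with LPS in scramble control was 3 to 6 with each library left out (1187 to 2106 of all genes against 2274), and for the interaction it was 1 to 2 (92 to 243 against 219). For the interaction DESeq2 called 2 of the 10 and 475 of all genes, and the absence of a filter on low counts gave 2 and 431. The causes were not tested. Signs turned in values that had not been called. In KD against scramble without LPS and with each library left out, BCL2 ran from -0.313 to 0.163, BID from -0.306 to 0.448, CFLAR from -0.004 to 0.108 and BAK1 from -0.065 to 0.111. BCL2L1 in KD with LPS ran from -0.164 to 0.011, BAX with LPS in KD from -0.167 to 0.114, and the interaction from -0.038 to 0.085 for CFLAR and from -0.007 to 0.16 for BAK1. Replicate numbers shared across groups gave correlations of deviations of -0.14 to 0.246, over 0.1 in 4 of 18 pairs. Different numbers gave -0.173 to 0.145, over 0.1 in 2 of 36 pairs. Scramble libraries of equal number without and with LPS were at 0.246, 0.073 and 0.055. These values do not settle whether equal numbers mark pairs. The sample labels do not say so, and the main fits did not pair them. With the replicate block, BCL2 and BID without LPS were at -0.037 and -0.112, 8 of the 10 genes were called with LPS in scramble control (MCL1 and BID added), 7 with LPS in KD (BID added), and 3260 of all genes in scramble control. BCL2A1 in scramble control, at 0 to 11 counts, is limited by depth.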

Other observations

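BBC3, which encodes the BH3-only protein PUMA, was too low for the naming rule and was chosen after its values were seen. It had 16 to 39 counts in scramble, 3 to 23 in scramble with LPS, 20 to 114 in KD and 49 to 138 in KD with LPS. With LPS it was higher in KD by 2.43 on the log2 scale (SE 0.66, adjusted p = 0.014), and without LPS the value was 1.57 (SE 0.604, adjusted p = 0.077).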
